A study of Homo sapiens with 30 samples.

Results

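The bins described here were covered by a lamina-associated domain in G1 and in G2 and not in S in HCT116, a human colorectal carcinoma line. Chromosomes 1 to 22 of hg19 were divided into 28803 bins of 100 kb, and a bin was called covered in a stage when at least 50% of it lay in an interval of the authors' consensus domain list for that stage. The members were thus chosen by the measured domain lists themselves. By this rule 410 bins were members, 1.42% of all autosomal bins and 40.9 Mb in all. A further 4487 bins were covered in G1, S and G2 and are called kept. No bin was partly covered in any stage, because the interval edges lie on the same 100 kb grid as the bins, apart from chromosome ends. Any coverage or full coverage therefore had to choose the same 410 bins, which is no check of the 50% threshold.

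Lamina-associated domains are long, mostly gene-poor stretches of chromatin that contact the nuclear lamina, the protein meshwork under the inner nuclear membrane. Their genes are often silent or weakly transcribed and much of this chromatin is replicated late in S phase. APEX2 is a peroxidase that tags molecules close to the protein it is fused to, and a fusion to lamin B1 tags what lies near the lamina.

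The domains came from 12 HCT116 samples, 6 of pulled-down DNA and 6 of input DNA, with 2 of each in G1, S and G2. The deposited lists hold 1 consensus per stage without scores, so no replicate spread can be given for any domain, and a weak signal in S cannot be told apart from none. RNA was measured in HEK293FT, a human embryonic kidney line, in asynchronous cells, as 2 libraries each of a nuclear fraction, a cytosolic fraction, RNA labelled near the lamina in native cells and RNA labelled near the lamina after paraformaldehyde (PFA) fixation. All of these cells, of both lines, were transfected with a construct of APEX2 and lamin B1, and the labels give no untransfected sample, promoter, clone or way of obtaining the stages. Nothing in the labels says that the 2 libraries of a group came from separate cultures, so p-values measure the spread between libraries, which may be technical. In the header of the first cytosolic library the output is named like the first nuclear one while the input is its own, and its sum of nuclear RNA markers, given below, lay near that of cytosolic replicate 2. The RNA and the domains come from different lines, and the RNA was not measured by stage.

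The members held 33 microRNA genes, and 14 of these lay at hg19 chr19:54169927-54198547, at the proximal end of a cluster known as C19MC that is active mainly in placenta. The other 36 of the 50 microRNA genes counted in this neighbourhood began at position 54200787, in bins covered in G2 alone, so a bin boundary of the G1 list cut through the cluster. The 3' arms of the genes on the member side are shown because several of them share a seed. The mature sequences below are those of RefSeq and run 5' to 3', with the seed, bases 2 to 8, in capitals.
miR-520e-3p: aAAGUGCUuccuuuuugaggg
miR-520a-3p: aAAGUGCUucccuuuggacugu
miR-519c-3p: aAAGUGCAucuuuuuagaggau
miR-519b-3p: aAAGUGCAuccuuuuagagguu
miR-515-3p: gAGUGCCUucuuuuggagcguu
miR-519e-3p: aAGUGCCUccuuuuagaguguu
miR-526b-3p: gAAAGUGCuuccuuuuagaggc
miR-512-3p: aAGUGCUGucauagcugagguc
miR-520f-3p: aAGUGCUUccuuuuagaggguu
miR-498-3p: aAAGCACCuccagagcuugaagc
AAGUGCU was shared by miR-520e-3p and miR-520a-3p, AAGUGCA by miR-519c-3p and miR-519b-3p, and AGUGCCU by miR-515-3p and miR-519e-3p, while the other 4 seeds shown, among them AAGCACC of miR-498-3p, each occurred once among the members. Of the 14 genes, 13 had no count in any of the 8 libraries and MIR519B had 1. Libraries of long RNA do not measure mature microRNAs, so these values concern only longer transcripts over the genes.

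A second group of microRNA genes lay on chromosome 21 at hg19 positions 17600001 to 18200000, a member stretch of 0.6 Mb that adjoined a kept domain. The host transcript MIR99AHG spans MIR99A, MIRLET7C and MIR125B2. All of their main products have seeds of widely conserved families, printed here with RefSeq's letters and the seed in capitals.
let-7c-5p: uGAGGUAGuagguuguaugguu
miR-99a-5p: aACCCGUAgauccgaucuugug
miR-125b-5p: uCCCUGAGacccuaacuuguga
Over all libraries MIR99A had 1 count, MIRLET7C 2 and MIR125B2 1. The host MIR99AHG had 70 and 21 nuclear, 16 and 9 cytosolic, 42 and 23 native lamina and 18 and 3 PFA lamina counts. In the test described below it was called with more nuclear than cytosolic RNA, but not with total counts as the only scaling. All 33 microRNA genes matched the RefSeq table, with 40 different mature sequences, and 27 of the 33 had no count in any library. The spans of the MIR3118 and MIR5701 genes cover several copies in a duplicated region of chromosome 15, so their place is uncertain.

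Promoters are shown for 4 member genes whose RNA is described below: ZNF146, the member with the highest level per length, and ZNF527, UQCRFS1 and ARRDC4, which were called between compartments. Each sequence is RefSeq's on GRCh38.p14, from 250 bases before to 50 bases after the annotated start, on the gene's strand. ZNF527 lies at chr19:37370849-37371148 (+), ZNF146 at chr19:36214856-36215155 (+), UQCRFS1 at chr19:29213102-29213401 (-) and ARRDC4 at chr15:97960453-97960752 (+). Capitals mark the GC box GGGCGG and the hexamer ACTACA, each on either strand (CCGCCC and TGTAGT), and the hexamer was chosen after the sequences had been read.
ZNF527: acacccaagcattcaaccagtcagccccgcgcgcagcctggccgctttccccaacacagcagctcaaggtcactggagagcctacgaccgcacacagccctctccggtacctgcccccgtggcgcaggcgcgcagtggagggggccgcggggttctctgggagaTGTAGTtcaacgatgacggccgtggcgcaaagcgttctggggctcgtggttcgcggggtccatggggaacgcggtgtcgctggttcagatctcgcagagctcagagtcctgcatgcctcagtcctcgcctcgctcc
ZNF146: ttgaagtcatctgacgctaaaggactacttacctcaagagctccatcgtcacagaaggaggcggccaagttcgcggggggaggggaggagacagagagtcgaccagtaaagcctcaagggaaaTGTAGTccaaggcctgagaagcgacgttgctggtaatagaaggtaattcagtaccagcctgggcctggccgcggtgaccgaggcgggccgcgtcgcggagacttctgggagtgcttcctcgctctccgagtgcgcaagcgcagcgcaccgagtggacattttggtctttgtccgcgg
UQCRFS1: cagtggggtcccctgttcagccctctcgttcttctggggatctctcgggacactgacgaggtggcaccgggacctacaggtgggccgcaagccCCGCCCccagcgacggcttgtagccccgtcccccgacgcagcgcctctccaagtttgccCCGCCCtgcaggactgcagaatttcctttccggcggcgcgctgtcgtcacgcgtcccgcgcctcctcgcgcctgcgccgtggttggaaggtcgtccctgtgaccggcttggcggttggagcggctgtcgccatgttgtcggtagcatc
ARRDC4: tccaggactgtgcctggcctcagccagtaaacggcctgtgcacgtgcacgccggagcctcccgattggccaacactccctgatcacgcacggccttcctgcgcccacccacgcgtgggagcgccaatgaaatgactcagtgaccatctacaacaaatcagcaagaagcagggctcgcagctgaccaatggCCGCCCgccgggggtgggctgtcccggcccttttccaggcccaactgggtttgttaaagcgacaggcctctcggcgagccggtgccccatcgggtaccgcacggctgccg
UQCRFS1 had 2 GC boxes and ARRDC4 had 1, with 3 CCAAT boxes on either strand, while ZNF527 and ZNF146 had no GC box and 1 ACTACA each. Among the 38 of 46 member zinc finger genes with a promoter in the table, 60.5% held GGGCGG, 28.9% CCAAT, 15.8% ACTACA and 0% TATAAA on either strand. The same shares were 63.8%, 47.8%, 20.0% and 2.95% over all 475 zinc finger promoters, and 44.6%, 35.7%, 8.95% and 11.9% over all 27305 promoters of the same length. For the whole set of member genes only 66.5% of the symbols to be matched had a promoter, so a comparison of base composition over all members is void.

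Member bins lay mostly in short stretches with a kept bin on 1 side or on neither side. Many stretches with no kept bin beside them adjoined bins covered in G2 alone or G1 alone, so they were not separate domains in every stage. The member bins formed 164 unbroken stretches with a median of 0.2 Mb, and 75 of these were single bins, at most 1 step of the lists' grid. Of the stretches, 118 (216 bins, 52.7% of members) had a kept bin directly on 1 side, 42 (183 bins, 44.6%) had a kept bin on neither side, and 4 (11 bins) were gaps between kept bins on both sides. The longest gap was chr12:34000001-34400000, which holds ALG10. These values follow from the lists that chose the bins and are given as descriptions without a test.

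Seen from the member bins, 126 (30.7%) adjoined a kept bin, against 8.95% of the 570 bins covered in G2 alone and 0.52% of the 22658 bins covered in no stage. The share was higher in the other changing classes that are covered in S, 53.1% in S and G2 without G1, 38.6% in G1 and S without G2 and 34.3% in S alone, so lying next to a kept bin is not particular to the members. The median distance between a member and the nearest kept bin was 300 kb, against 1100 kb for bins covered in G2 alone and 4700 kb for bins covered in no stage. Counted in bins, the median was 4 for members, 1 for S and G2 without G1 and 2 for both other classes covered in S. The distances were wide, since 231 members (56.3%) had a kept bin within 500 kb and 117 (28.5%) had none within 2 Mb. Of the 328 sides of the stretches, 38.4% faced kept bins, 29.6% bins of no stage, 22.6% bins of G2 alone and 8.23% bins of G1 alone.

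Taken as runs, the bins covered in both G1 and G2 formed 306 unbroken runs. In S, 166 runs were present whole (median 1.4 Mb), 98 were absent in part (median 1.35 Mb) and 42 were absent whole (median 0.3 Mb, at most 1.4 Mb). The runs absent in part held 227 member bins, 55.4% of all. The share of bins absent in S fell with the length of the run: 41.6% in runs of up to 0.5 Mb, 23.1% from 0.6 to 1 Mb, 10.8% from 1.1 to 2 Mb, 2.12% from 2.1 to 5 Mb and 0.9% over 5 Mb. Of 65 runs of up to 0.5 Mb, 29 were absent whole, and of the 68 runs of 2.1 to 5 Mb and the 10 longer ones none was.

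**Figure D1:**
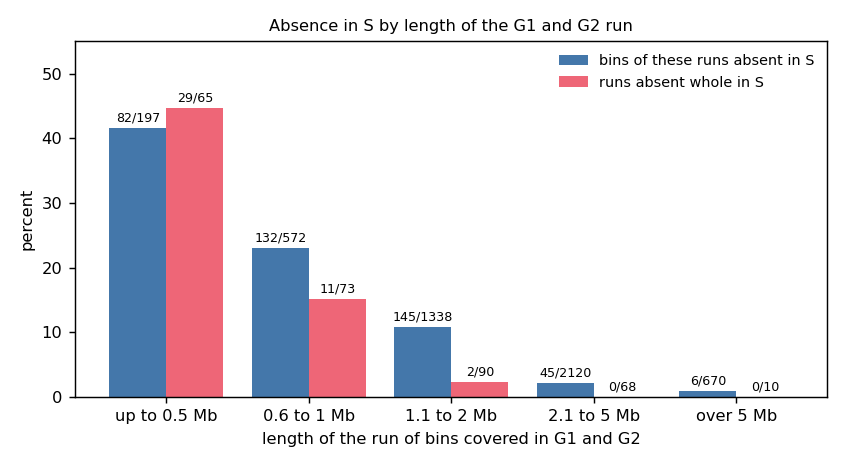
Percent of bins (blue) and of whole runs (red) absent in S, by the length of the run of 100 kb bins covered in both G1 and G2, with the numbers behind each bar. The share of bins falls from 41.6% in runs of up to 0.5 Mb to 0.9% in runs over 5 Mb.

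The chromosomes differed widely in the share of their G1 and G2 bins that was absent in S. Chromosome 22 had the highest share, 58.5% (24 of 41 bins), followed by chromosome 19 with 27.4% (34 of 124), chromosome 15 with 26.0% (40 of 154) and chromosome 12 with 22.0% (24 of 109). Few stretches made some of these shares. On chromosome 22, 14 of the 24 bins lay in the stretch 48300001 to 49700000 and 8 in the stretch 16100001 to 16900000. On chromosome 15, 16 of the 40 lay near the start of the sequenced arm. The lowest shares were 1.61% on chromosome 5 (6 of 372), 2.54% on chromosome 11 (9 of 354) and 2.59% on chromosome 3 (9 of 347).

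**Figure D2:**
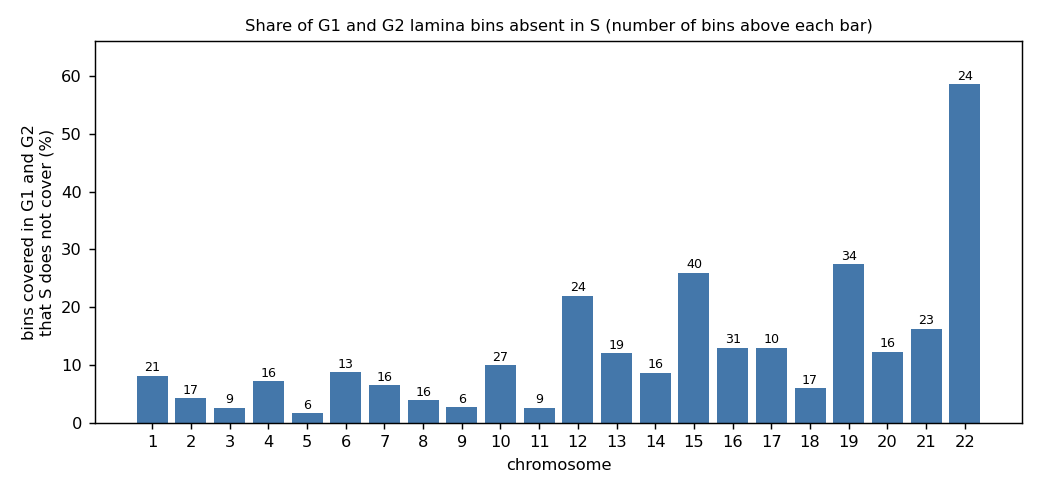
Percent of the bins covered in G1 and G2 that S does not cover, for each autosome, with the number of member bins above each bar. Chromosome 22 stands highest at 58.5% with 24 bins, 14 of them in a single stretch, and chromosome 5 lowest at 1.61% with 6 bins.

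Members were found often where the sequenced arms begin and end. On the acrocentric chromosomes 13, 14, 15, 21 and 22, 47 members (11.5% of members) but 12 kept bins (0.27% of kept) lay no further than 2 Mb past the first annotated gene. The shares were 0.7% of bins covered in G2 alone, 3.9% of bins covered in no stage and 3.31% of all autosomal bins. These zones run from the start of the chromosome and so include the bins before the first gene. Within 2 Mb of the outermost gene at a chromosome tip lay 44 members (10.7%), 2.25% of kept bins, 8.25% of bins covered in G2 alone and 2.76% of bins covered in no stage. The acrocentric starts are rich in duplicated sequence, to which reads are hard to assign. The share of such reads was not measured here, and its part in the absence from the S list was not tested.

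The 5 longest stretches show the range of places. On chromosome 22 the stretch 48300001 to 49700000 (1.4 Mb) held FAM19A5, which encodes a secreted protein of the brain, and 2 microRNA genes. On chromosome 15 the stretch 20100001 to 21400000 (1.3 Mb) held 14 genes, among them POTEB, POTEB2 and POTEB3 of a primate-specific family expressed in testis and prostate. Stretches of 1.0 Mb lay on chromosome 1 at 142500001 to 143500000, on chromosome 10 at 44300001 to 45300000 and on chromosome 13 at 19000001 to 20000000. All 5 were flanked by no kept bin.

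The genes of these long stretches differed in RNA. FAM19A5 and the testis tubulin gene TUBA3C on chromosome 13 had no count in any library. CXCL12 (hg19 chr10:44865601-44880545), a chemokine that guides migrating cells, was the only tested gene of its stretch. It had 2.96 and 4.98 CPM (counts per 1000000 after TMM scaling, a correction for library composition) in the nuclear, 2.81 and 2.54 in the cytosolic, 3.22 and 3.39 in the native lamina and 2.40 and 2.21 in the PFA lamina libraries. All 8 values lay between 2.21 and 4.98 CPM, and none of the 3 comparisons called it (edgeR adjusted p from 0.40 to 0.80).

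Member bins held more genes than kept bins and fewer than bins covered in no stage. A gene was assigned to the class of bins that held at least 50% of its span, which gave 311 member genes. Their density was 7.61 genes per Mb, against 3.06 in kept bins, 8.25 in bins covered in G2 alone, 10.4 in bins covered in no stage and 9.01 over all autosomal bins. No gene lay in 39.0% of member bins, 52.0% of kept bins and 27.2% of bins covered in no stage. The bins of no stage include bins before the first gene of the acrocentric chromosomes.

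Many member genes gave no RNA reads in HEK293FT. No count in any library was found for 142 of 311 member genes (45.7%), 56.0% of the genes of kept bins, 29.1% in bins covered in G2 alone, 9.80% in bins covered in no stage and 13.2% of all autosomal genes. The share was 52.8% in stretches away from kept bins and 35.7% in stretches that adjoined one. A gene without a count was below detection at 2321291 to 8557777 counts per library, and the file headers name no option to count reads with several matches, so for members with near-identical copies a 0 cannot be told apart from reads left uncounted.

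**Figure D3:**
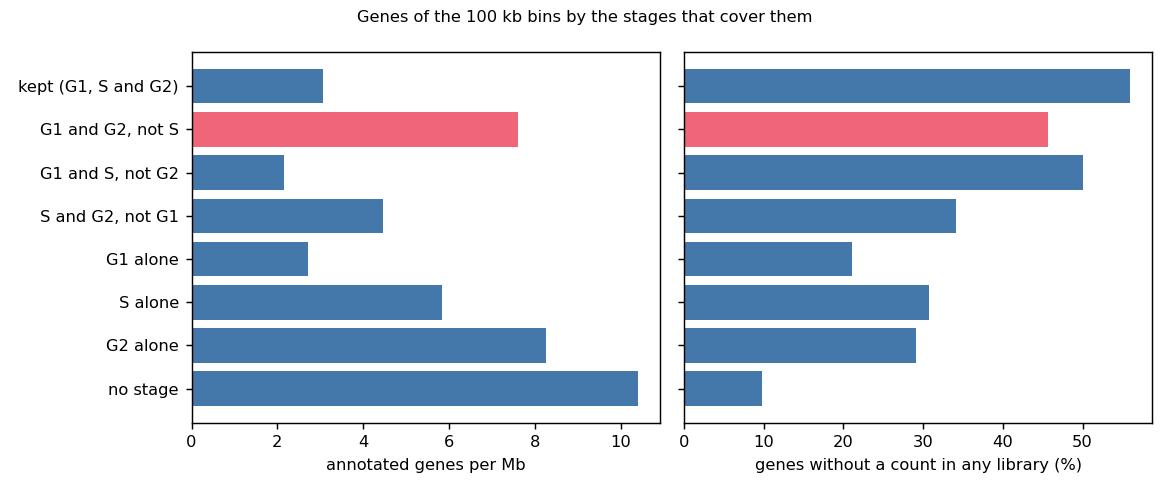
Annotated genes per Mb (left) and the percent of genes without a count in any RNA library (right) for the 8 classes of 100 kb bins, with the members in red. Members have 7.61 genes per Mb and 45.7% of genes without a count, between kept bins and bins of no stage on both measures.

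Families of clustered genes made up much of the member list. Zinc finger genes were the largest protein-coding family with 46 members, 14.8% of member genes against 2.22% of all autosomal genes. The USP17L deubiquitinase genes of a repeat array on chromosome 4 gave 21 of their 27 autosomal genes, all without a count, and they are near-identical copies. The GIMAP genes, GTPases of lymphocytes on chromosome 7, gave 7 of 8, of which GIMAP6 had 4 counts over all libraries and the other 6 none.

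Olfactory receptor genes, expressed in sensory neurons of the nose, numbered 15 of 396. Of these, 14 lay at the start of chromosome 14 and OR11H1 on chromosome 22, and 14 of the 15 had no count. The 5 BAGE genes on chromosome 21, known as tumour antigens of germ-line type, were all members, and 5 of 14 POTE genes were. The 5 BAGE symbols share exon bases, and BAGE2 to BAGE5 have the same span. POTEB, POTEB2 and POTEB3 share exon bases too, as do several USP17L symbols, so these are counts of symbols and not of separate loci. LINC genes, long non-coding RNAs named only by number, gave 51 members, of which 25 had no count.

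Several single-copy regulators and tissue genes also lay in member bins with few reads. SOX1, a transcription factor of the early nervous system, had 3 and 2 nuclear counts, no cytosolic count, 1 and 3 native lamina counts and 0 and 1 counts in the PFA libraries. LPA, the liver gene of apolipoprotein(a), had 3 counts in all, and GZMB, a protease of killer lymphocytes, and NDN, an imprinted gene of neurons, had none. All of these lie too near 0 for a comparison between groups, and they were chosen after their values were seen.

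Chromosome 19 held 45 of the 46 member zinc finger genes. Most genes of this kind on chromosome 19 encode KRAB zinc finger proteins, repressors that bind DNA of transposable elements and recruit machinery for H3K9 methylation. Its 9 member stretches covered 34 bins, 8.29% of members, and held 84 genes, 27.0% of member genes. The density was 24.7 genes per Mb there, against 6.06 in members elsewhere and 29.6 over the whole of chromosome 19. Genes without a count made up 26.2% of the members on chromosome 19 and 52.9% elsewhere.

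Of the 272 zinc finger genes of chromosome 19, 45 (16.5%) lay in members, 46 (16.9%) in kept bins, 17 (6.25%) in bins of G2 alone and 160 (58.8%) in bins of no stage. On the other autosomes 1 of 303 was a member, ZNF267 on chromosome 16, and 22 (7.26%) lay in kept bins.

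A run of 1.5 Mb on chromosome 19 shows both sides of a kept domain. The bins 36700001 to 37000000 were absent in S and held 4 zinc finger genes, 37000001 to 37600000 were kept with 11, and 37600001 to 38200000 were absent in S with 13. Thus the domain of G1 and G2 was narrower in S by 0.3 Mb on the proximal and 0.6 Mb on the distal side. Further along, the runs 52800001 to 53000000 and 53500001 to 54200000 were absent whole in S and held 6 and 13 zinc finger genes. The run 58400001 to 58700000, absent whole as well, held 8. By contrast the kept part 21600001 to 24600000 held 19 zinc finger genes. Of its run only the gene-free bin 24600001 to 24700000 was absent in S.

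**Figure D4:**
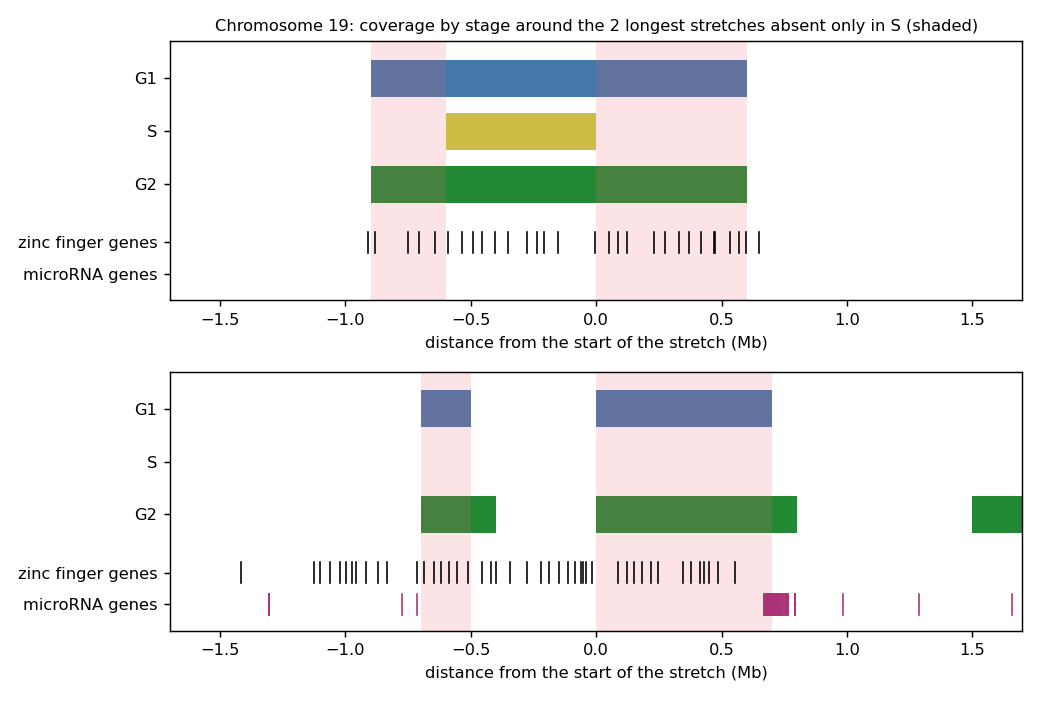
Coverage in G1 (blue), S (yellow) and G2 (green) around the 2 longest member stretches of chromosome 19, by distance in Mb from the start of the stretch, with members shaded in red. Ticks are zinc finger and microRNA genes. In the upper map S keeps a middle part of 0.6 Mb, and in the lower map S covers neither stretch.

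The RNA of the member genes was compared between compartments with edgeR's quasi-likelihood test on all 16504 genes that passed the filter on low counts, with Benjamini-Hochberg adjustment over all of them. Of the 311 member genes 64 passed, 33 of them zinc finger genes. These 64 are the better expressed members and do not stand for the rest. In these bulk libraries, fewer cells with a transcript and less of it per cell cannot be told apart. The share of all counts that fell on member genes ran from 0.0764% (95% Wilson interval 0.0742 to 0.0787) in cytosolic replicate 2 to 0.118% (0.115 to 0.121) in native lamina replicate 2.

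The HEK293-like markers PAX2, LHX1, NEFM and NEFL summed to 57.2 to 273 CPM per library and the colon epithelium markers to 21.8 to 48.9. The fetal globin genes HBG1 and HBG2, erythroid markers, were at 0. All 5 nuclear RNA markers were measured and summed to 13891 and 22981 CPM in the nuclear, 1051 and 1435 in the cytosolic, 6477 and 13706 in the native lamina, and 882 and 4273 in the PFA lamina libraries. PFA lamina replicate 1 thus lay below the cytosolic libraries for these markers. The 5 cytosolic RNA markers summed to 1082 and 1725 CPM in the nuclear and 5492 and 9346 in the cytosolic libraries. In the native lamina libraries they summed to 2432 and 2369 CPM, and in the PFA lamina libraries to 3295 and 1918. All lamina libraries thus lay above both nuclear ones for the cytosolic markers, and the part of this in the differences below was not tested.

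The members with the highest level per exonic length were ZNF146, a small zinc finger protein without a KRAB domain, and UQCRFS1, the Rieske iron-sulphur subunit of respiratory complex III. ZNF146 shares exon bases with ZNF565, so reads there are counted for more than 1 gene. ZNF146 averaged 32.2 CPM per kb over the 8 libraries and UQCRFS1 30.2. ARRDC4, an alpha-arrestin, followed with 17.1, USP14, a deubiquitinase of the proteasome, with 15.4, and MED10, a Mediator subunit, with 13.8. FRG1, which has copies elsewhere in the genome, averaged 12.3, the peptidase gene PEPD 10.6, ALG10, a glucosyltransferase of N-glycan synthesis, 7.10, RASEF 6.97 and the zinc finger gene HKR1 6.61.

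Levels of neighbours in this order overlapped widely between libraries. ZNF146 ran from 23.5 to 46.0 CPM per kb and UQCRFS1 from 9.54 to 55.3. Among genes of at least 300 exonic bases, the median level in the nuclear libraries was 2.51 CPM per kb for member zinc finger genes, 1.19 for those of kept bins and 5.17 for those of bins of no stage. The 2 nuclear libraries gave 2.65 and 2.36 for members, 1.59 and 0.857 for kept bins and 5.17 and 5.07 for bins of no stage. These 3 ranges did not overlap, but they show the spread between 2 libraries and not that between genes. For zinc finger genes of chromosome 19 alone the medians were 2.60 and 1.91 in members and 1.78 and 1.04 in kept bins. They were 4.37 and 4.68 in bins of no stage.

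**Figure D5:**
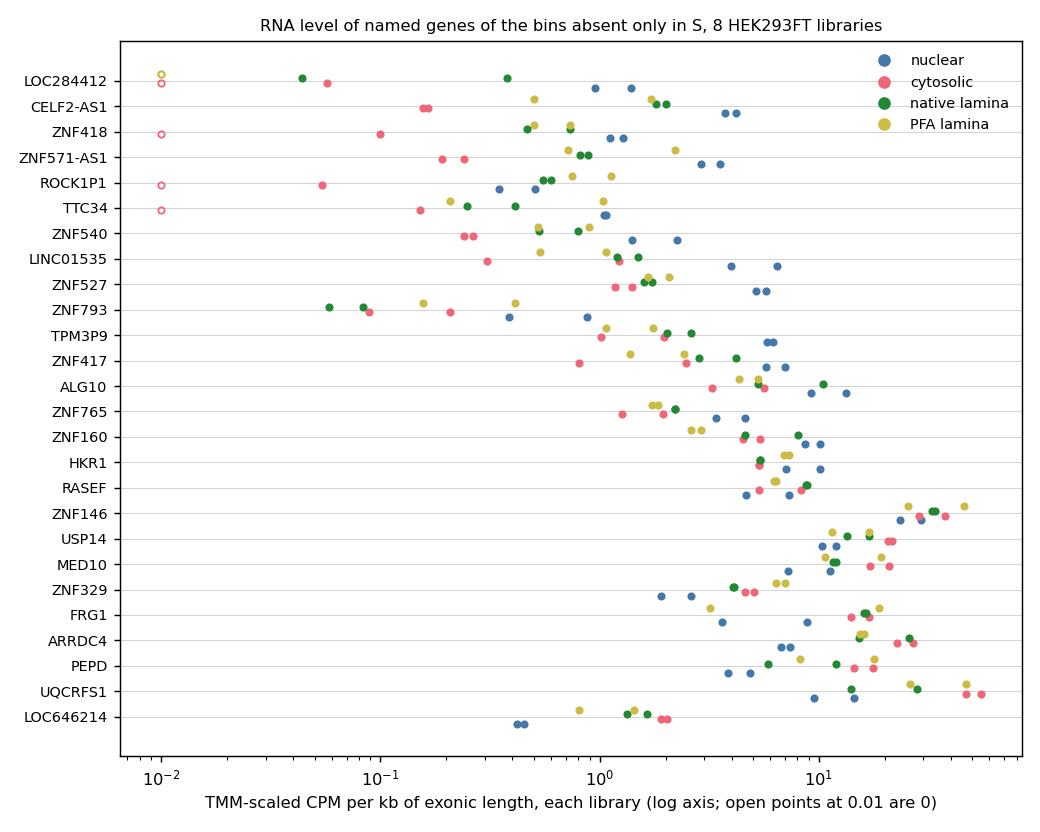
RNA level of the named member genes that passed a test or rank among the 10 highest, as TMM-scaled CPM per kb of exonic length on a log axis, with 1 point per library and 4 groups of 2. Genes are ordered by the log2 difference of nuclear over cytosolic. UQCRFS1 and ARRDC4 lie higher in both cytosolic libraries than in the nuclear ones, and ZNF527 the other way round.

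Between the fractions, most called member genes were higher in the nuclear RNA. Of the 64 members tested, 29 (45.3%) had more nuclear RNA and 7 (10.9%) had more cytosolic RNA. Of all genes tested 26.1% were nuclear-high and 21.2% were cytosolic-high, 47.3% in either direction. Of the 213 tested genes of kept bins, 76 (35.7%) were nuclear-high and 21 (9.86%) cytosolic-high. The median log2 difference was 0.83 in members, 0.82 in genes of kept bins and 0.13 in all genes tested. Of the 33 member zinc finger genes 19 were higher and 1 was lower, with a median of 0.96. Of the 31 other members tested, 10 (32.3%) were higher and 6 (19.4%) lower, with a median of 0.56. The shares of these other members thus lay nearer to those of all genes than the zinc finger shares did. Of all 499 zinc finger genes tested, 189 were higher and 38 lower, with a median of 0.72, and of the 39 in kept bins 23 were higher and 1 lower, with a median of 1.36. The zinc finger genes made up 66.5% to 67.4% of the member counts in the nuclear and 48.5% to 50.7% in the cytosolic libraries.

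ZNF527, a KRAB zinc finger gene at hg19 chr19:37862059-37883966, is an example on the nuclear side. It had 29.6 and 26.5 CPM in the nuclear and 6.02 and 7.19 in the cytosolic libraries, and the groups did not overlap. Its log2 difference was 2.09 (SE 0.35, edgeR adjusted p 0.00105). Where the libraries of called genes are said to lie apart, here and below, this adds no support to the call. The share of all genes that lie apart in this way was not computed. ZNF331, an imprinted zinc finger gene, had 34.2 and 23.0 CPM in the nuclear and 7.89 and 7.40 in the cytosolic libraries, with a log2 difference of 1.90 (SE 0.44, edgeR adjusted p 0.00432).

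Long non-coding and antisense transcripts stood among the largest differences. CELF2-AS1, an antisense transcript at the CELF2 gene, had 62 and 63 counts in the nuclear and 3 and 2 in the cytosolic libraries, a ratio of 24.9 after scaling (exact 95% interval for counting error 10.4 to 77.9). Its edgeR adjusted p was 8.57e-04. ZNF418 had 29 and 30 nuclear and 3 and 0 cytosolic counts, a ratio of 19.6 (6.38 to 97.6), and LOC284412 had 21 and 13 against 1 and 0, a ratio of 33.8 (5.67 to 1375), with edgeR adjusted p 0.00291 and 0.0136. The counts ignored strand, so reads of CELF2-AS1 and ZNF571-AS1 cannot be told apart from those of genes on the other strand.

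LINC01535 had 13.4 and 8.25 CPM in the nuclear and 2.54 and 0.634 in the cytosolic libraries (log2 difference 2.68, SE 0.66, edgeR adjusted p 0.00571). ZNF571-AS1 had 9.65 and 11.9 against 0.802 and 0.634 CPM (3.84, SE 0.68, edgeR adjusted p 0.00126), and ZNF540, which shares exon bases with it, 7.94 and 4.98 against 0.936 and 0.846 (2.82, SE 0.68, edgeR adjusted p 0.00506). In all 3 the nuclear values lay above both cytosolic values. ZNF793 was also called (2.02, edgeR adjusted p 0.0492), but not with the replicate number as a block (edgeR adjusted p 0.0573). TTC34 had 12 and 11 nuclear against 2 and 0 cytosolic counts, a ratio of 11.4 (exact 95% counting interval 2.83 to 100.1, edgeR adjusted p 0.0343). ROCK1P1, a partial copy of ROCK1 that may share its reads, had 8 and 5 against 1 and 0, a ratio of 12.9 (1.94 to 549.6, edgeR adjusted p 0.0379).

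The 7 member genes with less nuclear RNA included genes of the mitochondria, the proteasome and the Mediator complex. UQCRFS1 (hg19 chr19:29698167-29704136) had 11.7 and 17.7 CPM in the nuclear and 57.6 and 67.7 in the cytosolic libraries. The log2 difference was -2.09 (SE 0.39, edgeR adjusted p 0.00158). ARRDC4 (hg19 chr15:98503933-98517068) had 30.2 and 27.3 against 110 and 92.6 CPM, a log2 difference of -1.82 (SE 0.31, edgeR adjusted p 0.00104).

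PEPD, which encodes the dipeptidase prolidase, had 9.80 and 7.73 CPM in the nuclear and 35.7 and 29.2 in the cytosolic libraries (-1.89, SE 0.43, edgeR adjusted p 0.00394). LOC646214, a pseudogene on chromosome 15, had 3.73 and 3.44 against 15.6 and 16.7 CPM (-2.17, SE 0.42, edgeR adjusted p 0.00193), and its reads may be shared with the parent gene. The log2 difference was -1.10 for ZNF329, the only zinc finger gene on this side, -1.05 for MED10 and -0.92 for USP14, with edgeR adjusted p 0.0179, 0.039 and 0.0179. ZNF146 did not pass (-0.32, edgeR adjusted p 0.42), with 90.7 and 113 against 110 and 145 CPM, and these ranges overlapped.

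The call count rests on the number of libraries. Without nuclear replicate 1 it fell to 9 higher and 5 lower members, without nuclear replicate 2 to 16 and 4, without cytosolic replicate 1 to 10 and 4, and without cytosolic replicate 2 to 13 and 4.

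The native lamina RNA differed from the nuclear RNA in 4 of 64 member genes (6.25%), against 7.31% of all genes tested. All 3 comparisons use the same 2 nuclear libraries, so their values are not independent of each other. By direction, 2 members (3.12%) rose and 2 (3.12%) fell relative to the nuclear fraction, and the shares of all genes tested were 3.87% and 3.44%. The medians of the log2 difference were -0.29 in members and -0.07 in all genes. For the 33 member zinc finger genes the median was -0.57 with 0 higher and 2 (6.06%) lower, and for those of kept bins -1.03 with 0 higher and 6 lower of 39. Of all 499 zinc finger genes tested 17 (3.41%) were higher and 44 (8.82%) lower, with a median of -0.25. Among the 146 on chromosome 19 in bins of no stage, 1 was higher and 22 (15.1%) lower, with a median of -0.32. A lower level of zinc finger RNA was thus not particular to the members.

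ARRDC4 rose from 30.2 and 27.3 CPM in the nuclear libraries to 62.1 and 105 at the native lamina (log2 difference 1.54, SE 0.30, edgeR adjusted p 0.0163). LOC646214 had 3.73 and 3.44 against 11.0 and 13.6 CPM (1.77, SE 0.42, edgeR adjusted p 0.0302). ZNF527 fell from 29.6 and 26.5 to 8.21 and 8.84 CPM (-1.72, SE 0.34, edgeR adjusted p 0.0167). In each of these 3 genes, picked by their calls, the groups did not overlap, and the native values lay on the side of the cytosolic ones.

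ZNF793 fell from 6.23 and 2.75 CPM to 0.416 and 0.589 (-3.14, SE 0.84, edgeR adjusted p 0.0429), and it shares exon bases with ZNF793-AS1. With total counts as the only scaling it was no longer called. None of the 4 genes was called without nuclear replicate 1, without nuclear replicate 2 or without native lamina replicate 2, and ARRDC4 alone was without native lamina replicate 1. Without either cytosolic library ARRDC4 and ZNF527 were called, and without either PFA library 4 members were higher and 8 lower. The summed nuclear RNA markers given above were below both nuclear libraries in both native ones, and their part in these differences was not tested.

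The PFA lamina RNA differed from the nuclear RNA in 14 of 64 member genes (21.9%), against 17.4% of all genes tested. Of the members 5 (7.81%) were higher and 9 (14.1%) lower, where 9.63% of all genes tested were higher and 7.81% lower. The medians of the log2 difference were -0.30 in members and -0.04 in all genes. Among the 33 member zinc finger genes 1 was higher and 4 (12.1%) were lower, and among the 39 in kept bins 0 were higher and 12 lower, with medians of -0.37 and -1.06. Of all 499 zinc finger genes tested 37 (7.41%) were higher and 74 (14.8%) lower, with a median of -0.25. Among the 146 on chromosome 19 in bins of no stage, 8 were higher and 29 (19.9%) lower, with a median of -0.36. Here too this was not particular to the members.

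The 5 genes higher at the PFA lamina were UQCRFS1, PEPD, ZNF329, LOC646214 and ARRDC4, each of which was also called with more cytosolic than nuclear RNA. UQCRFS1 had 57.3 and 32.0 CPM at the PFA lamina against 11.7 and 17.7 in the nuclear libraries (1.62, SE 0.39, edgeR adjusted p 0.0191). PEPD had 36.0 and 16.6 against 9.80 and 7.73 (1.60, SE 0.43, edgeR adjusted p 0.0264), and ZNF329 23.8 and 21.7 against 8.87 and 6.53 (1.56, SE 0.34, edgeR adjusted p 0.0128). ARRDC4 had 63.0 and 65.5 CPM and a log2 difference of 1.16 (SE 0.31, edgeR adjusted p 0.0248), and LOC646214 11.8 and 6.62 CPM and one of 1.39 (SE 0.43, edgeR adjusted p 0.0426). The nuclear and PFA values did not overlap in any of the 5 genes, which were picked by their calls.

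ZNF160, a KRAB zinc finger gene, had the smallest adjusted p among the members, with 14.2 and 15.8 CPM at the PFA lamina against 47.2 and 55.3 in the nuclear libraries (-1.77, SE 0.33, edgeR adjusted p 0.00835). ZNF527 had 8.50 and 10.7 CPM (-1.56, SE 0.35, edgeR adjusted p 0.0147), and ZNF417 6.47 and 11.4 against 26.9 and 33.0 (-1.78, SE 0.48, edgeR adjusted p 0.0265). ALG10, the gene in the longest gap between kept bins, had 13.5 and 16.6 against 41.9 and 28.9 CPM (-1.25, SE 0.40, edgeR adjusted p 0.0481). All 4, picked by their calls, were lower in both PFA libraries than in both nuclear libraries.

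LOC284412 had no count in either PFA library and 21 and 13 counts in the nuclear libraries, which is at least 3.32-fold lower against a floor of 3 counts per library (edgeR adjusted p 0.0324). LINC01535 had 1.11 and 2.21 CPM against 13.4 and 8.25 (-2.78, edgeR adjusted p 0.0216), and CELF2-AS1 1.29 and 4.41 against 9.65 and 10.8 (-1.95, edgeR adjusted p 0.0436). TPM3P9 (-2.12, edgeR adjusted p 0.0154) shares exon bases with ZNF761, and ZNF765 (-1.16, edgeR adjusted p 0.0403) with ZNF765-ZNF761, so reads there are counted for more than 1 gene.

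The PFA calls rest on single libraries as well. None of the 14 genes was called without nuclear replicate 1 or without nuclear replicate 2. Without PFA lamina replicate 1 only ZNF329 was higher and ZNF160 lower, and in a fit of only the 4 libraries compared 0 were higher and 1, ZNF160, was lower. PFA lamina replicate 1 had the lowest sum of nuclear RNA markers of all 8 libraries, and the part of this in the differences was not tested. Between the PFA and the native lamina edgeR called none of the 64 members (smallest adjusted p 0.31), with 1 higher and 1 lower at an unadjusted p under 0.05.

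The genes of the lamina and of DNA replication were examined for their place and RNA. The list of lamina anchors and H3K9 methylation holds 23 genes, such as LBR, which tethers heterochromatin to the lamina, and the list of DNA replication 29, such as the MCM helicase genes. Of these, 20 and 28 could be placed on an autosome, and all lay in bins covered in no stage, which hold 90.7% of all autosomal genes, while members hold 1.20%. Against nuclear RNA, 3 of the 23 lamina genes rose and 0 fell in the native preparation, and 8 rose and 0 fell in the PFA one, where 3.87% and 9.63% of all genes tested rose. The first list includes LMNB1, the gene of the transfected fusion. Of the 29 replication genes 3 (10.3%) rose and 0 fell in the native preparation. In the PFA one 7 (24.1%) rose and 2 (6.9%) fell, where 7.81% of all genes tested fell. Between the fractions, 6 lamina genes (26.1%) were nuclear-high and 9 (39.1%) cytosolic-high. For the replication genes these numbers were 2 (6.9%) and 12 (41.4%). Of all genes tested 26.1% were nuclear-high and 21.2% cytosolic-high, so the nuclear-high share of the lamina genes was that of all genes.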

How the data were processed

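The authors deposited raw read counts per gene symbol, made with featureCounts 1.5.2 on hg19 RefFlat, with strand ignored and reads over several genes counted for each, per the file headers. TopHat2 2.1.1 and Bowtie2 2.3.2 stand in the submitters' processing notes. The deposited domain lists give interval positions in hg19 without scores. Their caller, windows and way of joining replicates are not given in the sources used here. The H3K9me3 samples, the signal tracks and 4 K562 samples whose labels conflict were not used here.

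The members and gene lists were chosen with earlier results of these data known. Genes of at most 5 Mb on 1 autosome were placed by at least 50% of their span. The 27630 genes were filtered with filterByExpr, and 16504 were tested with edgeR 4.0.16 (R 4.3.3) in 1 fit of 8 libraries with TMM factors, with a call at an adjusted p under 0.05. The fit was tested on simulated data. Total counts ran from 2321291 to 8557777, so a floor of 3 counts was 0.312 to 1.10 CPM. Intervals and floors cover counting error only, since PCR reads without molecular identifiers can be copies of 1 molecule. Named genes were the 10 largest differences per direction among called members of at least 300 exonic bases, the 10 highest levels per length and the genes of the 5 longest stretches. Other genes were chosen after their values had been seen. The alternatives tried were the DESeq2 1.42.0 Wald test, other scalings, no filter, a replicate block, fewer libraries, other gene placements and other bins.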

Additional observations from a re-analysis of the deposited data

How the results depend on the processing

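Leaving out each of the 8 libraries in turn gave 9 to 31 members higher and 4 to 8 lower for nuclear against cytosolic, 0 to 4 higher and 0 to 8 lower for the native lamina, and 0 to 7 higher and 0 to 13 lower for the PFA lamina against nuclear. Where this left a group with 1 library, that library is assumed to vary like the other groups. For the native lamina, no filter gave 4 higher and 4 lower, a fit of only the 4 libraries compared 4 and 8, total counts 1 lower, and placing genes by any base in a member bin 4 lower. For the PFA lamina, only the 4 libraries gave 0 higher and 1 lower, total counts 5 lower, and any base 14 lower. Total counts moved the median of all genes by 0.28 at the native and 0.17 at the PFA lamina (log2), and raised the share of all calls that were higher from 52.9% to 87.5% and from 55.2% to 78.7%. The cause of these changes was not tested. The replicate numbers are labels only. With the replicate block the native lamina had 4 members lower in place of 2, and same-numbered deviations correlated at 0.28 (nuclear against cytosolic), 0.16 (native) and 1.19e-04 (PFA). With bins of 50 kb, 15.4% of members adjoined a kept bin and 47.1% held no gene, since each 100 kb bin is then divided. Bins starting 50 kb later gave 446 members. Of 35 named results none reversed under any of the alternatives computed for them. They were no longer called 26 times without nuclear replicate 1, 25 without nuclear replicate 2, 10 to 12 without each other library except PFA lamina replicate 2 (0), 13 with only the 4 libraries, 8 with total counts, 4 with DESeq2, and 1, ZNF793 between the fractions, with the block. A library of 2321291 counts, PFA lamina replicate 2, limits what can be seen of low genes.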
